A study of Mus musculus with 6 samples.

Results

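The p53 family and the DNA damage checkpoint were read out in mouse oocytes through 10 genes, matched by gene symbol among the 17577 genes listed for every library. The members were the transcription factors *Trp53*, *Trp63* and *Trp73*, the p53 inhibitors *Mdm2* and *Mdm4*, the kinases *Atm*, *Atr*, *Chek1* and *Chek2*, and the cell cycle inhibitor *Cdkn1a*, and all 10 were found. Germinal vesicle (GV) oocytes came from C57BL/6 J females aged 12 weeks that had been primed with gonadotropin. Of the 6 libraries, 3 were from *Bnc1*tr/tr mice, which are homozygous throughout the body for a frameshift allele that ends the basonuclin 1 protein early, and 3 were from wild-type (WT) mice that carry no mutant allele. *Bnc1*tr/tr oocytes are called mutant here. Each cDNA was made from 1 oocyte and littermates were compared, by the study's methods, and the labels do not say whether the 3 libraries of a group came from separate mice, so the p-values measure the spread between these libraries.

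In dividing cells, ATM and ATR are activated at DNA breaks and stalled replication forks and phosphorylate the kinases CHK2 and CHK1. p53 is stabilised when the checkpoint kinases release it from MDM2, a ubiquitin ligase, and MDM4, a relative of MDM2 that masks its activation domain, and it then induces genes such as *Cdkn1a*, which encodes the cyclin-dependent kinase inhibitor p21. Resting oocytes rely on TAp63, a long form of p63 that is switched on by CHK2 and casein kinase 1 and drives the elimination of oocytes with damaged DNA. Fully grown GV oocytes are largely transcriptionally silent and hold a store of maternal mRNA, so their transcript levels reflect earlier synthesis and decay as well as transcription.

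Promoters of 9 of the 10 members were held in the RefSeq table (GRCm38.p6) and were searched for the p53 half-site, the 10-base element that p53 family proteins bind in pairs. In the 250 bases before the gene start, on either strand, 3 members held at least 1 match, against 8.20% of all 27025 genes with such a window. These were *Cdkn1a* (chr17:29090729-29090978, plus strand), *Mdm2* (chr10:117710759-117711008, minus strand) and *Trp53* (chr11:69580109-69580358, plus strand). They are shown 5′ to 3′ because *Cdkn1a* and *Mdm2* are the members best known as p53 target genes, and capitals mark the matches.
Cdkn1a: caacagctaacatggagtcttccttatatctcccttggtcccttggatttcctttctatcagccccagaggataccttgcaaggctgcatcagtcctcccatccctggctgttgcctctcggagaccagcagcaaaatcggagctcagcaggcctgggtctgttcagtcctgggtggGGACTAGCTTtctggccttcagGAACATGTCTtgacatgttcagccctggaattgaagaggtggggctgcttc
Mdm2: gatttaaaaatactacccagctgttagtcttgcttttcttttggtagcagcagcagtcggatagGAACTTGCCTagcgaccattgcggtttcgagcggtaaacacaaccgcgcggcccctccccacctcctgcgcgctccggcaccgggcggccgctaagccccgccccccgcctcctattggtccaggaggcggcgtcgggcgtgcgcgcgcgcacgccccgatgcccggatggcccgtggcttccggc
Trp53: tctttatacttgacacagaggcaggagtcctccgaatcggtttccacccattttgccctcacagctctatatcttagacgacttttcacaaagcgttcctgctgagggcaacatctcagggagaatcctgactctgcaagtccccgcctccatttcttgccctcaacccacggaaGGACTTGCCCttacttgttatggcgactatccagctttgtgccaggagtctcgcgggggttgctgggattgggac
The *Cdkn1a* window held 2 matches separated by 12 bases, and the other 2 windows held 1 each. A match is a description of the letters and not evidence of binding. The windows of *Trp73*, *Mdm4*, *Atm*, *Atr*, *Chek1* and *Chek2*, and of the second start of *Cdkn1a*, held none.

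Expression was deposited as FPKM, a fragment number scaled to transcript length and library size, and levels of different genes were compared on this scale. Differences between genes in capture by the oligo-dT primer or in sequence shared with other genes were not corrected here, so these comparisons are approximate. Depth estimated from the steps of low values ran from 13.04 to 21.54 M (mega) fragments per library, so that 3 fragments on 1 kb equal 0.139 to 0.230 FPKM. FPKM totals lay between 657550 and 724550, and libraries correlated at 0.973 to 0.990 within and 0.908 to 0.930 between the genotypes across genes, which are not independent replicates. *Bnc1* itself was lower in the mutants, at 9.04, 6.51 and 5.83 against 13.17, 12.54 and 16.23 FPKM in WT (log2 fold change -0.89, limma adjusted p = 0.0090). All 12 oocyte markers were expressed, with a summed level of 14484 to 15356 FPKM in mutants and 16485 to 18040 in WT. FPKM is relative to the library total, so a change in 1 transcript and a change in the total RNA of an oocyte cannot be told apart.

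In WT oocytes the members spanned a wide range of levels. *Mdm4* was by far the most abundant at 1592 ± 124 FPKM (SD, n = 3), rank 47 of the listed genes, followed by *Chek1* at 179 ± 7.36, *Mdm2* at 39.2 ± 7.59 and *Trp53* at 16.7 ± 3.27 FPKM. *Trp63* (7.69 ± 1.36) stood below *Trp53* without overlap of the libraries and next to *Atr* (5.41 ± 2.41), from which it did not differ beyond the spread. *Chek2* (1.87 ± 0.424) and *Trp73* (1.26 ± 0.333) overlapped each other, as did *Atm* (0.640 ± 0.212) and *Cdkn1a* (0.577 ± 0.272), the lowest of the list. Every member was above 0 in all 6 libraries, and the lowest value, 0.27 FPKM of *Cdkn1a*, was above the 0.0745 to 0.122 FPKM that 3 fragments give on its longest coding transcript. The inhibitor *Mdm4* thus exceeded *Mdm2* by 34.0 to 48.1 times in the WT libraries, and *Chek1* exceeded *Chek2* by 85.2 to 125 times. Among the 3 family members, *Trp53* held 65.0% ± 1.15, *Trp63* 29.98% ± 1.37 and *Trp73* 5.01% ± 1.60 of their summed FPKM (SD, n = 3 WT libraries). Gene-level FPKM does not separate TAp63 from the shorter p63 forms. In mutant oocytes the order was the same down to *Atr*, and then ran *Trp73* (3.57 ± 1.48), *Cdkn1a* (2.53 ± 1.41), *Chek2* (1.42 ± 0.471) and *Atm* (1.07 ± 0.278 FPKM, SD, n = 3), where each of these 4 overlapped the gene before it.

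**Figure D1:**
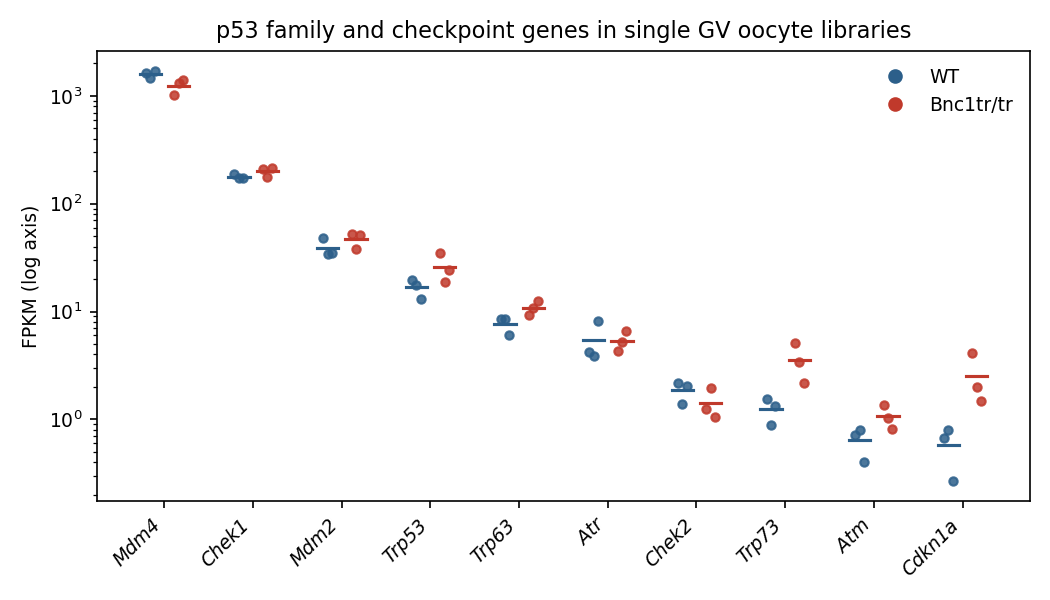
FPKM of the 10 members (log axis) in each of the 3 WT (blue) and 3 mutant (red) libraries, ordered by the WT mean, with bars for group means. Levels run from about 1592 FPKM for *Mdm4* to 0.577 FPKM for *Cdkn1a* in WT, and all red points lie above the blue ones for *Trp63*, *Trp73*, *Atm* and *Cdkn1a* and below them for *Mdm4*.

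To ask which members differed between the genotypes, limma was run on log2(FPKM + 1) over the 10560 genes whose mean reached 1 FPKM, and a gene was called changed at a Benjamini-Hochberg adjusted p under 0.05 with an absolute log2 fold change over 0.5. Of the 10 members 9 passed the filter, and 2 of them, *Cdkn1a* and *Trp73*, were called, both higher in mutant oocytes, while 0 were called lower. Over all tested genes 24.1% were called higher and 7.68% lower (31.8% in either direction), so the share of members called was near the background. The groups did not overlap for 4 of the 9, *Trp63*, *Trp73*, *Mdm4* and *Cdkn1a*, against 46.8% of all tested genes. The median over all tested genes was a log2 fold change of 0.15, and the called members are also given relative to this shift. Higher genes made up 75.8% of all calls, but 63.5% with upper-quartile, 59.3% with median-ratio and 46.6% with quantile scaling.

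Within the p53 family, *Trp73* (chr4:154056253-154140208, minus strand) encodes p73, which is known in oocytes for a part in the spindle checkpoint. Replicates 1 to 3 of the mutants held 5.11, 3.42 and 2.17 FPKM and those of WT 1.54, 0.89 and 1.34. Every mutant library was above every WT library, as for 32.7% of all tested genes. The log2 fold change was 0.98 (SE 0.25, limma adjusted p = 0.017), or 0.83 after the median shift is taken off. The call was lost without mutant replicate 1 (limma adjusted p = 0.053), without mutant replicate 2 (0.053) and without WT replicate 2 (0.067), and after quantile normalization (0.11). An antisense gene, *Trp73os*, overlaps 280 bases of its exons, and reads of the pair cannot be told apart without strand.

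*Trp63* (chr16:25683763-25892102, plus strand), whose TAp63 form guards the oocyte reserve, had 9.31, 10.83 and 12.42 FPKM in mutants and 8.50, 8.44 and 6.12 in WT. The groups did not overlap, but the difference did not pass the test (log2 fold change 0.45, 95% interval from 0.02 to 0.88, limma adjusted p = 0.10). *Trp53* (chr11:69580359-69591873, plus strand) had 34.87, 18.62 and 24.03 FPKM against 19.53, 17.50 and 13.13 in WT. Mutant replicate 1 was the highest and mutant replicate 2 lay within the WT range, and the log2 fold change of 0.57 did not pass either (95% interval from 0.01 to 1.14, limma adjusted p = 0.11). Relative to all 3 family members, *Trp53* held 56.6% to 70.7% of the summed FPKM in mutants and 63.8% to 66.0% in WT, which overlapped. *Trp53* shared 10.2% of its 31-base words with other genes, most with the pseudogene *Trp53-ps*.

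Neither p53 inhibitor was called. *Mdm4* (chr1:132959484-133030561, minus strand) had 1013, 1329 and 1397 FPKM in mutants and 1630, 1453 and 1692 in WT. All mutant libraries were below all WT libraries, with a log2 fold change of -0.36 (95% interval from -0.78 to 0.05, limma adjusted p = 0.16). Groups did not overlap, in either direction, for 46.8% of all tested genes. After median-ratio scaling, which removes the overall shift, the value was -0.55 (limma adjusted p = 0.061). *Mdm2* (chr10:117688875-117710758, minus strand) had 51.86, 37.90 and 50.83 FPKM against 47.94, 34.46 and 35.16, and the groups overlapped (log2 fold change 0.25, 95% interval from -0.21 to 0.72, limma adjusted p = 0.38). *Mdm4* exceeded *Mdm2* by 19.5 to 35.1 times in the mutants, which overlapped the WT range. *Mdm4* shared 13.8% of its 31-base words with other genes, most with the pseudogene *Mdm4-ps*.

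No checkpoint kinase was called. *Chek1* (chr9:36708482-36727065, minus strand), the kinase downstream of ATR, had 209.71, 177.85 and 213.73 FPKM in mutants and 187.05, 173.97 and 174.68 in WT, with a log2 fold change of 0.16 (95% interval from -0.20 to 0.52, limma adjusted p = 0.48). It was -0.02 after median-ratio scaling. *Chek2* (chr5:110839979-110874145, plus strand), the kinase that acts on TAp63, had 1.26, 1.95 and 1.05 FPKM against 2.18, 1.39 and 2.05, and its groups overlapped (log2 fold change -0.25, 95% interval from -0.71 to 0.20, limma adjusted p = 0.37). Quantile normalization gave *Chek2* a log2 fold change of -0.76 and a call (limma adjusted p = 0.024). *Atr* (chr9:95857597-95951781, plus strand), the kinase that senses stalled forks, had 4.26, 5.27 and 6.53 FPKM against 4.17, 3.87 and 8.18, a log2 fold change of 0.03 (95% interval from -0.57 to 0.63, limma adjusted p = 0.94) whose sign changed with scaling. Antisense genes and *Gm24004*, on the same strand, overlap the exons of *Atr*, by 726 bases at most. *Atm* (chr9:53439149-53536740, minus strand), the kinase of DNA breaks, had 1.37, 1.03 and 0.82 FPKM against 0.72, 0.80 and 0.40, without overlap between the groups, and was not tested because its mean of 0.857 FPKM was under the minimum. Without the filter, where 19.4% of genes were called, its log2 fold change of 0.34 did not pass (limma adjusted p = 0.17).

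*Cdkn1a* (chr17:29090976-29100727, plus strand), the gene of p21, had 4.13, 1.99 and 1.47 FPKM in mutants and 0.67, 0.79 and 0.27 in WT. Every mutant library was above every WT library, and the means of 2.53 ± 1.41 and 0.577 ± 0.272 (SD, n = 3 each) differed by 4.39 times. The log2 fold change was 1.11 (SE 0.28, limma adjusted p = 0.015), or 0.96 after the median shift is taken off. *Cdkn1a* passed the filter only through its level in mutant oocytes, and 78.4% of the 960 tested genes with a WT mean under 1 FPKM were called higher. Its call held in each of the 6 fits that left out 1 library, and was lost after quantile normalization (limma adjusted p = 0.10) and without the filter (0.0502). *AC167363.2*, on the opposite strand, overlaps 273 bases of its exons.

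**Figure D2:**
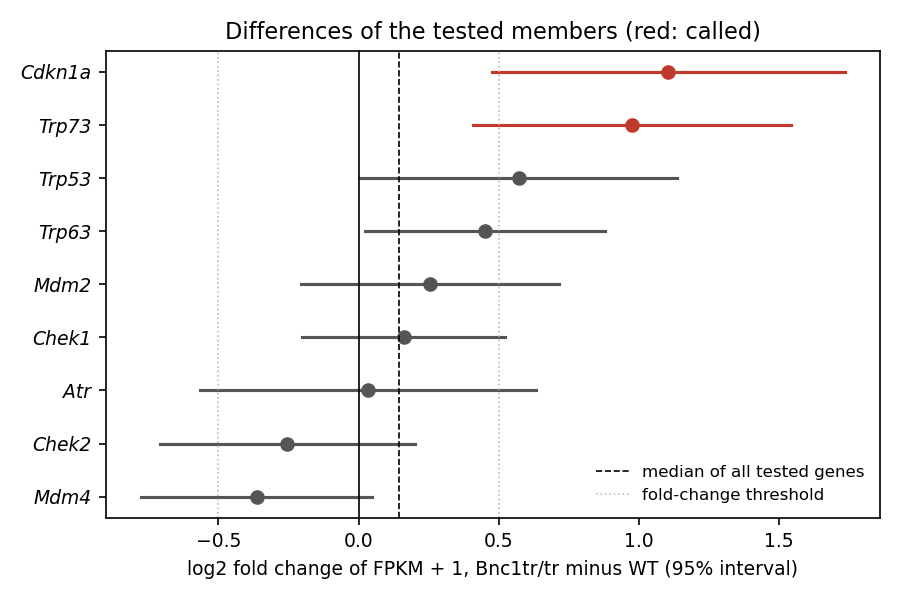
Log2 fold change of FPKM + 1, mutant minus WT, of the 9 tested members with 95% intervals from limma, where red marks called genes, the dashed line the median of all tested genes (0.15) and dotted lines the fold-change threshold of 0.5. *Cdkn1a* (1.11) and *Trp73* (0.98) are the called members, and the intervals of *Mdm4*, *Atr* and *Chek2* reach below -0.5.

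The pathway around the members was read out next in 4 lists. These were chosen with earlier results of these data known, so their shares of called genes are a description. The list with the most calls held known p53 target genes. Of its 44 genes 39 were listed in the files and 27 were tested, of which 17 were called higher in the mutant and 0 lower (62.96% higher, against 24.1% of all tested genes). Their median log2 fold change was 1.25, against 0.15 for all tested genes. The median was 0.71 with quantile normalization, 0.63 without the filter, where 16 of 39 genes were called, and also 0.63 over the 19 genes with a WT mean of at least 1 FPKM. Low genes were more often called higher in general, so the list was also read by level. Of its 19 genes with a mean under 10 FPKM 13 were called higher (all genes of this level, 30.1%). Of its 8 genes with a mean of 10 FPKM or more 4 were called higher (all genes of this level, 18.1%). Of the 19 with a WT mean of at least 1 FPKM 9 were called higher (all such genes, 18.7%). The other 8 tested genes passed the filter only through their mutant level, and all 8 were called higher (78.4% of such genes). With 1 library left out, 14 to 19 genes of the list were called, and with upper-quartile, median-ratio and quantile scaling 17, 16 and 15 were called higher and 1, *Bax*, lower.

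The 4 highest log2 fold changes of the list were those of *Gls2*, *Gpx1*, *Sesn1* and *Cd80*. Of these *Gpx1* passed the filter in both genotypes, and *Gls2*, *Sesn1* and *Cd80* passed it only through their mutant level, as *Cdkn1a* did. *Gls2*, a mitochondrial glutaminase, had 17.90, 10.41 and 9.47 FPKM in mutants and 0.59, 0.17 and 0.31 in WT (log2 fold change 3.29, SE 0.25, limma adjusted p = 2.5e-05). *Gpx1*, the cytosolic glutathione peroxidase, had 203.51, 157.86 and 138.59 FPKM against 18.96, 19.25 and 17.62, a mean 8.96 times as high (log2 fold change 3.08, SE 0.19, limma adjusted p = 6.7e-06). *Sesn1*, a stress-induced inhibitor of mTORC1 signalling, rose in the mutants from 0.370 ± 0.213 to 4.72 ± 0.749 FPKM (SD, n = 3 each, log2 fold change 2.07, limma adjusted p = 6.4e-05). *Cd80*, a costimulatory ligand of T cells, had 0.113 ± 0.0321 FPKM in WT, close to the 0.0470 to 0.0774 FPKM of 3 fragments, and 3.65 ± 1.15 in mutants (log2 fold change 2.03, limma adjusted p = 0.00015).

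Growth arrest and death genes of the list were described further, and those of this paragraph other than *Bax* and *Pmaip1* were picked for their known roles after their values had been seen. *Btg2*, an antiproliferative gene, had 19.0 ± 3.30 FPKM in mutants and 4.45 ± 1.60 in WT, and *Gadd45a*, a growth arrest gene, had 7.99 ± 1.68 and 1.66 ± 0.471 (SD, n = 3 each). *Ccng1*, the gene of cyclin G1, had 12.0 ± 3.57 and 3.66 ± 0.904 FPKM, and *Fas*, a death receptor, had 3.43 ± 0.690 and 0.697 ± 0.189. *Apaf1*, the scaffold of the apoptosome, had 3.17 ± 0.826 and 0.647 ± 0.251 FPKM. These 5 were picked among the called genes, so their direction is a description, and *Fas* and *Apaf1* passed the filter only through their mutant level. Of the other death genes of the list, *Perp* was called higher, at 4.30 ± 1.89 against 0.897 ± 0.260 FPKM (log2 fold change 1.43). *Perp* also passed the filter only through its mutant level. *Aen* (8.04 ± 1.71 against 8.85 ± 1.78 FPKM, log2 fold change -0.12) and *Ei24* (1.38 ± 0.489 against 1.31 ± 0.257, 0.03) were not called. *Bid* had 0.81, 1.12 and 1.70 FPKM in mutants and 0.57, 0.41 and 0 in WT, without overlap, and was not tested. *Pidd1*, at 0 to 0.02 FPKM in mutants and 0 to 0.28 in WT, was not tested. Nor was *Tnfrsf10b*, at 0.31, 0 and 0.57 FPKM in mutants and 0.11, 0.27 and 0 in WT, which overlapped. The death effector *Bax* was called lower under each of the 3 scalings named above but not on the FPKM as deposited. It had 18.36, 24.47 and 22.08 FPKM in mutants and 39.74, 28.49 and 25.15 in WT, a log2 fold change of -0.49 (limma adjusted p = 0.11), with all mutant libraries below all WT libraries. Groups were apart, in either direction, for 46.8% of all tested genes. *Pmaip1*, the gene of the BH3-only protein NOXA that TAp63 can induce, had 0.99, 1.43 and 2.30 FPKM against 0.27, 0.10 and 0.11, without overlap, and was not tested because its mean of 0.867 FPKM was under the minimum. Of the 12 listed genes of the list that were not tested, *Bid* and *Pmaip1* were the 2 with every mutant library above every WT library. The reverse held for 0 of the 12. *Bbc3*, the gene of PUMA, was not analysed here. Antisense genes overlap the exons of *Gadd45a*, *Bid* and *Ei24* over 337, 628 and 324 bases. *Gm45808*, on the same strand, overlaps 140 bases of the exons of *Bax*.

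**Figure D3:**
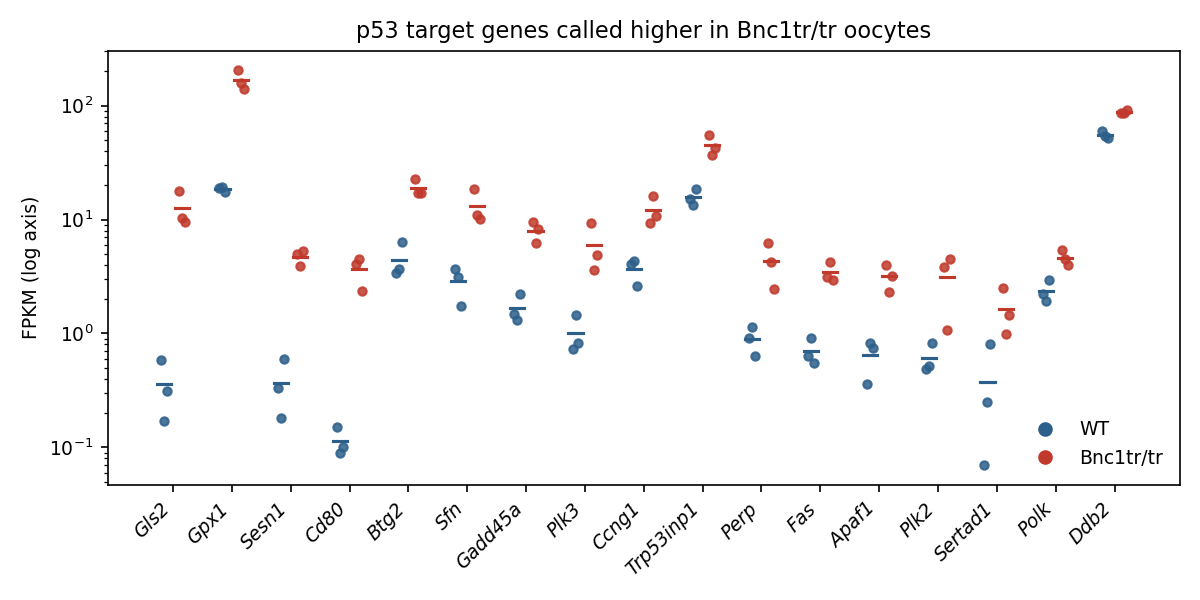
FPKM (log axis) of the 17 p53 target genes called higher, in each WT (blue) and mutant (red) library with bars for group means, ordered by log2 fold change. Red and blue points do not overlap for any of the 17 genes, which were picked because they were called, so this is a description. Every mutant library was above every WT library for 32.7% of all tested genes. The levels run from about 0.113 FPKM for *Cd80* in WT to 203.51 for *Gpx1* in mutants.

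Markers of other cells also differed between the genotypes. Summed FPKM of the theca and stroma markers was 11.3 to 14.6 in mutants and 2.80 to 3.90 in WT, that of the granulosa markers 43.3 to 60.4 and 22.7 to 39.9, that of the immune markers 1.89 to 52.0 and 1.39 to 3.0, and that of the endothelial markers 5.38 to 8.10 and 10.1 to 11.7. Of the listed markers, 2 of 6, 5 of 9, 2 of 6 and 2 of 4 had a mean of at least 1 FPKM. Called higher were *Cyp11a1* and *Dcn* of theca and stroma and *Fshr* and *Kitl* of the granulosa, and *Pecam1* of the endothelium was called lower. The markers *Foxl2*, *Col1a1* and *Ptprc*, picked after their values had been seen, were at 0.03, 0.01 and 0.30 FPKM at most. Other immune markers reached higher levels than *Ptprc*, with *Lyz2* at 5.81, 47.97 and 0 FPKM in the mutants and 0 in every WT library, and *Cd68* at 12.2, 3.64 and 0.96 against 2.94, 1.82 and 1.39. *Cd3e* (0.24 to 0.67 FPKM) and *Adgre1* (0.09 to 0.13 FPKM) were above 0 in every mutant library and at 0 in every WT library. The part of these cells in the values of the p53 targets was not tested.

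The other 3 lists held smaller shares of called genes than the 31.8% of all tested genes (24.1% higher and 7.68% lower). Of 33 tested damage sensors and mediators 2 were called higher and 2 lower, with a median log2 fold change of 0.11. *Bard1*, the partner of BRCA1, had 19.17, 19.12 and 19.10 FPKM in mutants and 5.10, 3.72 and 4.21 in WT (log2 fold change 1.92, limma adjusted p = 4.8e-05). The 9-1-1 clamp loads at damage and activates ATR, and those of its genes that were called went in opposite directions. *Rad9b* was higher, at 6.61 ± 0.924 against 3.42 ± 0.259 FPKM (0.78, limma adjusted p = 0.0076), and *Rad1* was lower, at 13.3 ± 4.67 against 30.5 ± 1.15 (-1.20, limma adjusted p = 0.0074). The clamp genes *Rad9a* (log2 fold change 0.55, groups not overlapping) and *Hus1* (0.06, groups overlapping) were not called. *Rad9a* had a WT mean of 0.647 FPKM and passed the filter only through its mutant level. *Xrcc6*, the gene of Ku70 in end joining, was lower, at 37.97 ± 0.785 against 55.8 ± 8.92 FPKM (-0.53, limma adjusted p = 0.043). *Rad9b* and *Xrcc6* overlap exons of antisense genes over 1002 and 344 bases. Without WT replicate 3, 9 genes of this list were called.

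Of 28 tested p53 and p63 regulators 3 were called higher and 1 lower, with a median of 0.17. *Daxx*, a histone chaperone that binds p53 and MDM2, had 24.28, 19.15 and 17.74 FPKM in mutants and 3.48, 4.38 and 4.78 in WT (log2 fold change 2.03, limma adjusted p = 6.9e-05). Among ubiquitin ligases, *Itch* (3.69 ± 0.505 against 1.75 ± 0.313 FPKM) and *Rchy1* (291 ± 36.2 against 182 ± 20.7) were called higher, and *Nedd4l* (25.0 ± 2.87 against 45.6 ± 9.42) was called lower (SD, n = 3 each). *Thap6*, on the opposite strand, overlaps 590 bases of the exons of *Rchy1*. The casein kinase 1 genes, looked at for their action on TAp63 after the values had been seen, gave log2 fold changes of 0.16 for *Csnk1a1*, 0.28 for *Csnk1d* and 0.37 for *Csnk1e*, and none of these 3 was called. Quantile normalization gave 2 higher and 7 lower in this list.

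Of 23 tested cell cycle effectors 3 were called higher and 1 lower, with a median of 0.03. *Cdkn1b*, the gene of the p21 relative p27, had 21.83, 21.63 and 20.12 FPKM in mutants and 7.03, 6.51 and 10.52 in WT (log2 fold change 1.32, limma adjusted p = 0.0011). *Rbl1*, the gene of the pocket protein p107, had 19.6 ± 2.78 against 7.21 ± 1.24 FPKM (1.33, limma adjusted p = 0.00077), and *Gadd45b* had 1.93 ± 0.922 against 0.723 ± 0.132 (0.72, limma adjusted p = 0.038). *Gadd45b* passed the filter only through its mutant level, and 78.4% of all such genes were called higher. Without the filter 2 genes of the list were called higher and 1 lower. *Ywhaq*, a 14-3-3 protein, was lower at 149 ± 5.58 against 223 ± 31.6 FPKM (-0.58, limma adjusted p = 0.031). It shared 32.3% of its 31-base words with other genes. Of the regulators of prophase arrest, also picked after their values had been seen, the inhibitory kinase *Wee2* (140 ± 3.89 against 185 ± 24.9 FPKM), the phosphatase *Cdc25b* (5.49 ± 1.08 against 4.58 ± 0.437) and the cyclin *Ccnb1* (1390 ± 93.1 against 1190 ± 220) were not called. *Ccnb1* shared 27.8% of its 31-base words with other genes. Without WT replicate 2, 2 genes of the list were called.

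**Figure D4:**
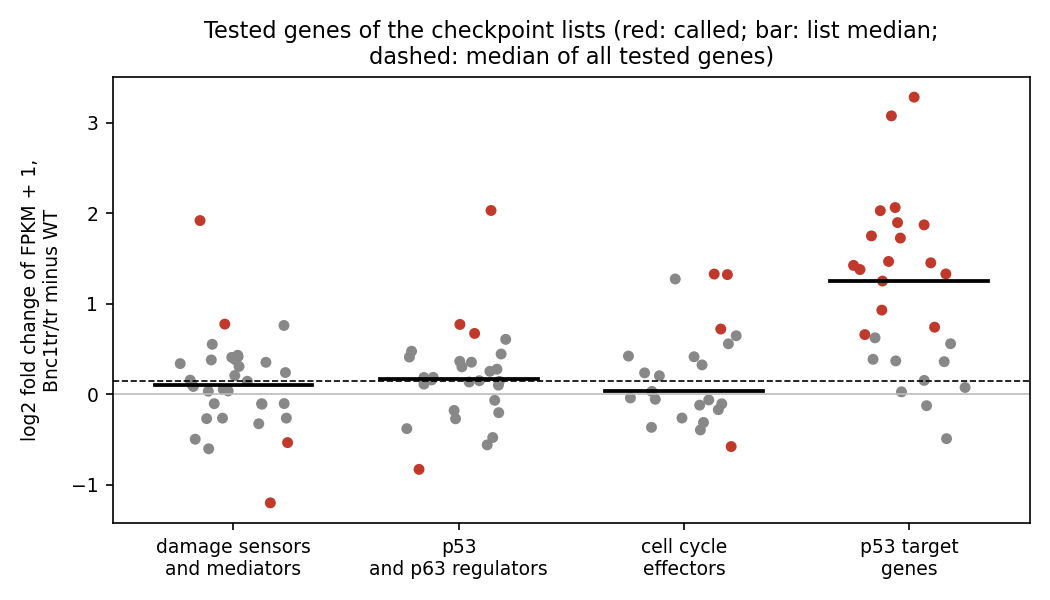
Log2 fold change of FPKM + 1, mutant minus WT, for each tested gene of 4 pathway lists, where red marks called genes, black bars the list medians and the dashed line the median of all tested genes. Medians of 0.11, 0.17 and 0.03 lie near the dashed line at 0.15 for the first 3 lists, and the p53 target genes have a median of 1.25. Over the 19 p53 target genes with a WT mean of at least 1 FPKM the median is 0.63. The lists were chosen with earlier results of these data known.

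Among the promoters of the p53 target list, 9 of 30 genes with a window held a p53 half-site, and so did 4 of the 13 with a window that were called higher. The share over all genes was 8.20%. The 4 were *Gadd45a*, whose match GGGCTAGCCC starts 40 bases before the gene start, *Ccng1*, with GGGCAAGCCT at 185 bases, *Sesn1* (AAGCTTGTTT, 173 bases) and *Polk* (GAACTAGCCT, 231 bases). Another start of *Sesn1* and of *Polk* held none.

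Transcripts whose pattern over the 6 libraries was most like that of the 3 most abundant members and of *Trp63* were looked up across all tested genes, as a description. *Nup37* (r = 0.998) and *Naa20* (0.99) were closest to *Mdm4*, *Ankra2* (0.997) and *Elavl1* (0.98) to *Chek1*, *Dnm2* (0.985) and *Gpr50* (0.98) to *Mdm2*, and *Ttc19* (0.99) to *Trp63* (Pearson correlation of log2 values, n = 6 libraries of 2 genotypes). With 6 points and 10560 genes, high values arise readily.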

How the data were processed

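RNA of GV oocytes was reverse transcribed with an oligo-dT primer and amplified (Smart-seq2, modified), and libraries were made with a transposase. The submitters' processing notes name HISAT2 2.0.4, Bowtie2 2.2.5, RSEM 1.2.12 and GRCm38.p6, with no role given. The authors deposited 1 table of FPKM per library, rounded to 2 decimals, without counts. No molecular identifiers were used, so fragments are not independent molecules. 25 symbols that had become dates were restored by NCBI Gene ID.

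Genotypes were compared with limma 3.58.1 (R 4.3.3) on log2(FPKM + 1), a scale that understates the change of low genes, and p-values were adjusted over all 10560 tested genes. The limma step was tested on simulated data. Depth was estimated from the periodic steps of low FPKM values over 934 genes with 1 annotated transcript and was used in no test, and floors of 3 fragments cover counting error only. Transcript lengths, exon overlaps, coordinates and shared 31-base words came from GENCODE M21 (GRCm38). Library strandedness is not given in the sources used here. Figures were drawn with matplotlib 3.10.9.

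Named genes were all members, up to 4 called genes in each direction of each list, *Bax*, *Bbc3*, *Pmaip1*, *Bnc1* and the nearest patterns of 4 members. 1 gene that this rule names is not reported here. Further list genes and cell markers in the text were picked after their values were seen. Members and lists were chosen with earlier results of these data known. Alternatives were another pseudocount, no filter, 3 scalings, a replicate block, adjusted p alone and leaving out each library.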

Additional observations from a re-analysis of the deposited data

How the results depend on the processing

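Over the alternatives the members gave 109 values, of which 95 kept direction and side of the threshold, 6 lost the call, 1 gained it and 7 reversed. The number of members called was 1 without the filter on low values and 1 with quantile normalization, where 0 were higher, and 1 to 2 with 1 library left out (members called higher, 1 to 2). *Atr* reversed to -0.086 with upper-quartile, -0.12 with median-ratio and -0.35 with quantile scaling, and ran from -0.13 to 0.33 with 1 library left out, and *Chek1* reversed to -0.024 with median-ratio scaling. All tested genes called higher numbered 2547, and 1637 after quantile normalization. Those called lower numbered 811, and 1231, 1395 and 1877 with upper-quartile, median-ratio and quantile scaling. With 1 library left out the counts ran from 1867 to 2560 and from 416 to 1037. Quantile normalization gave 9 regulators. Leaving out 1 library, added with adjusted p alone after the data were seen, gave 3 to 9 sensors, 3 to 5 regulators, 2 to 5 cell cycle effectors and 14 to 19 p53 targets. The cause of these changes was not tested. Same-numbered libraries deviated together at 0.28, -0.03 and 0.12, not all over 0.1, and the labels tie no number to a litter, so the numbers were not taken as pairs. The replicate block gave 7 cell cycle effectors in place of 4, 2781 genes higher and 952 lower, and changed no member's call. The effect of depth on the calls was not tested.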
